A study of Homo sapiens with 2 samples.

Results

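The 77 genes described here encode transcription factors of the FOX, SOX, GATA and KLF families. They were taken by symbol: FOX with a letter and a number, SOX with a number, GATA1 to GATA6 and KLF with a number, without FOXA1, FOXA2, FOXA3 and SOX9. They comprise 36 FOX, 18 SOX, 6 GATA and 17 KLF genes of the 19775 genes measured, on 203 of 41091 probe sets that name 1 gene. The samples came from Huh7, a cell line from a human liver carcinoma, grown in DMEM with serum and antibiotics. Cells transduced by lentivirus with a short hairpin RNA against CD24 (CD24 shRNA), a cell surface glycoprotein, were set against cells transduced with a non-target control (control); whether either was a clone or a pool is not given in the sources used here. Each group was 1 sample on 1 expression array. The difference between the groups therefore could not be set against a spread between cultures, no p-value is given, and precision is limited by having 2 arrays.

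On the deposited log2 scale every probe set has been centred, which leaves its CD24 shRNA and control values equal in size and opposite in sign. Levels are not in the table, and every result below is a difference, CD24 shRNA minus control. Probe sets of 1 gene were averaged, and the SD given is the spread among them, a measure of probe set error that leaves out the spread between cultures. Pooled over 10523 genes with several probe sets, this SD was 0.27 on the log2 scale. The call rule was a difference of at least 2-fold in either direction. CD24, the target of the hairpin, averaged -0.68 on the CD24 shRNA array and 0.68 on the control array, a log2 difference of -1.37 ± 0.38 (SD, 6 probe sets). Some dim probe sets could be recognised from the binary step of the deposited digits, which placed the dimmer array below a log2 level of 4, near background. This covered 54 of the 203 member probe sets (26.6%) and 23.4% of all probe sets. A further 14 member probe sets (6.90%) were tied at 0 on both arrays, against 5.53% of all probe sets. Probe sets of hepatocyte and hepatoma markers were rarely placed there (1 of 23), against 8 of 17 for endothelial and 5 of 12 for blood markers. The counts were 5 of 13 for cholangiocyte markers and 9 of 32 for stellate cell and fibroblast markers. The digits miss some dim probe sets, so a probe set not placed there can still be dim.

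The 4 families differ in how they bind DNA. FOX proteins bind through a winged-helix forkhead domain, SOX proteins bend DNA with a high-mobility-group box, GATA proteins read GATA sequences with zinc fingers, and KLF proteins (Krüppel-like factors) bind GC-rich and CACCC sequences with a carboxy-terminal row of zinc fingers. In the liver, FOXO1 and KLF15 take part in the fasting programme of gluconeogenesis, GATA4 and GATA6 in the specification of hepatocytes from endoderm, and KLF6 is an injury-induced factor of several liver cell types.

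None of the 77 genes was 2-fold higher or lower with CD24 shRNA by the mean over its probe sets, where 0.632% of all genes were 2-fold higher and 0.485% 2-fold lower. At 1.5-fold, KLF6 was the single member counted as higher and no member was counted as lower, against 2.63% and 2.38% of all genes. That count depends on the probe sets used: without those placed near background, KLF7 (0.63) and KLF9 (-0.92) passed 1.5-fold too. The share of all genes past 1.5-fold without such probe sets was not computed. Of the 77, 45 lay above 0, 29 below and 3 at 0, with a median log2 difference of 0.03; the median over all genes was 0. The absolute difference had a median of 0.11 over the members and 0.14 over all genes. At the level of probe sets, 1 of 203 passed 2-fold on the higher side and 2 on the lower side, against 1.01% and 0.601% of all probe sets with 1 gene. These were single probe sets of GATA2, KLF9 and KLF15. The pooled SD of 0.27 was reached in size by 17 members, 9 of them higher and 8 lower. Of the 77 members 77.9% stayed under it, near the 76.0% of all genes, but the families differed. The share was 58.8% for KLF (10 of 17 genes), 77.8% for FOX, 83.3% for GATA and 94.4% for SOX. Hybridisation control probe sets had a median difference of -0.11; scaling on them would add 0.11 to every value and put 10 members that lie just below 0 above it.

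**Figure D1:**
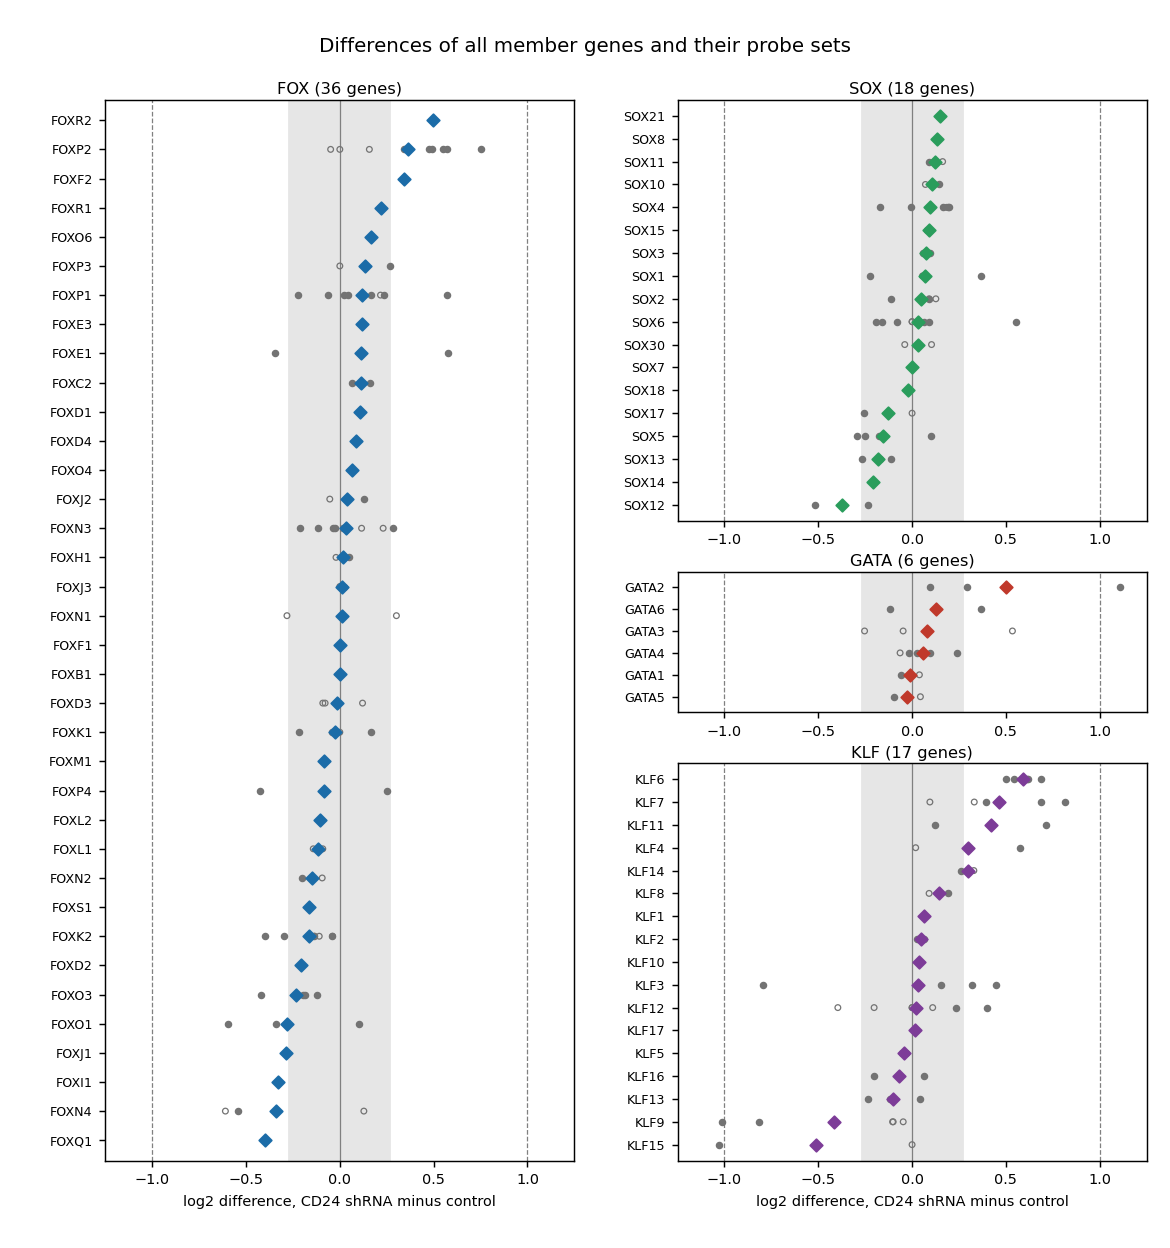
Log2 difference, CD24 shRNA minus control (x axis), of each member gene (diamond, the mean over its probe sets) and of each probe set (circle), by family. Open circles are probe sets placed below a log2 level of 4 or tied at 0, the grey band spans the pooled SD of 0.27 either side of 0, and dashed lines mark 2-fold; no diamond reaches them.

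**Figure D2:**
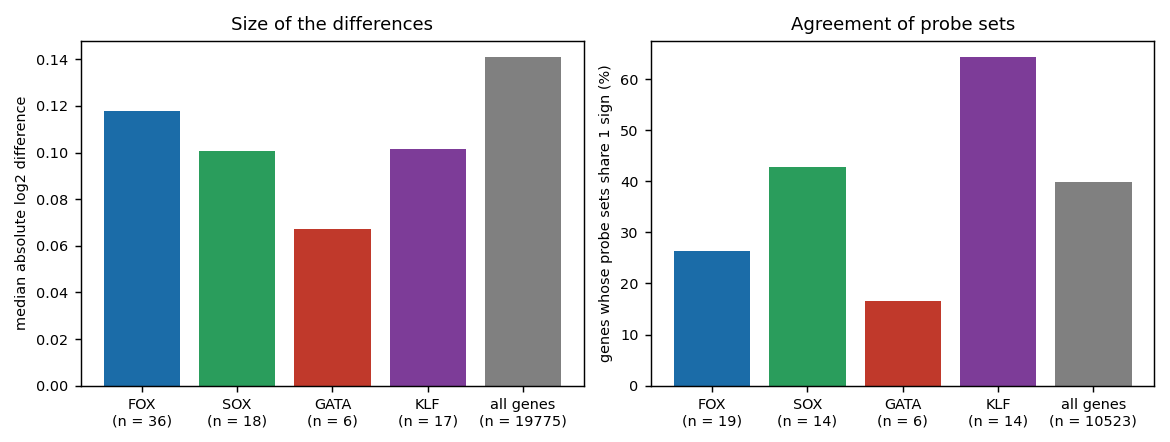
Median absolute log2 difference over genes (left) and percentage of genes with several probe sets whose probe sets all lie on 1 side of 0 (right), for each family and for all genes, with the number of genes under each bar. The medians of the 4 families (0.07 to 0.12) lie under that of all genes (0.14), and KLF genes have the highest share of agreeing probe sets (64.3%).

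The KLF family held the largest differences on either side. KLF6 was 1.51-fold higher and KLF7 1.38-fold higher with CD24 shRNA, while KLF15 and KLF9 lay at -0.51 and -0.42 on the log2 scale. Of 17 KLF genes, 12 lay above 0 and 5 below, with a median log2 difference of 0.04 and a range from -0.51 to 0.59. The median absolute difference was 0.10 over KLF genes, against 0.14 over all genes. Over KLF probe sets it was 0.20, against 0.17 over all probe sets with 1 gene. Among the 14 KLF genes with several probe sets, all probe sets lay on 1 side of 0 in 9 (64.3%), against 39.9% of all genes with several probe sets. The number of probe sets per gene was not matched in this comparison, and a tied probe set counts as not on 1 side.

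KLF6, a widely expressed factor that many stimuli induce, averaged 0.30 on the CD24 shRNA array and -0.30 on the control array. Its 5 probe sets differed by 0.50, 0.54, 0.61, 0.62 and 0.69 on the log2 scale, a mean of 0.59 ± 0.07 (SD, 5 probe sets). All 5 were higher on the CD24 shRNA array, none was placed near background, and their SD was well under the pooled SD. The digits can miss dim probe sets, and 3 of the 5 have names ending in _s_at, which can match more than 1 transcript. KLF7, its close paralog with roles in neuronal development, averaged 0.23 on the CD24 shRNA array and -0.23 on the control array, a difference of 0.46 ± 0.29 (SD, 5 probe sets). All 5 KLF7 probe sets were higher with CD24 shRNA, at 0.81, 0.69 and 0.39, and at 0.33 and 0.10 for the pair placed near background. Without that pair the KLF7 difference was 0.63.

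The other members of the group of activating KLF proteins were nearer to 0. KLF4, one of the reprogramming factors of pluripotent cells, lay at 0.30 ± 0.39 (SD, 2 probe sets), made of 0.58 on 1 probe set and 0.02 on another placed near background. KLF2, a shear-stress factor of endothelium, lay at 0.05, KLF1, the erythroid KLF, at 0.07, and KLF5, a factor of proliferating epithelium, at -0.04. All 5 genes of this group with several probe sets had probe sets of 1 sign, and KLF6, KLF7 and KLF4 exceeded the pooled SD.

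KLF9 and KLF15, both known as glucocorticoid-induced genes, were the lowest of the family. KLF9 averaged -0.21 on the CD24 shRNA array and 0.21 on the control array, a difference of -0.42 ± 0.46 (SD, 5 probe sets). Its probe sets fell into 2 sets: -1.02 and -0.82 on the pair not placed near background, and -0.10, -0.10 and -0.05 on the 3 that were. The difference was -0.92 over the first pair and -0.10 as the median over all 5, so the size for KLF9 depends on which probe sets are used. All 5 have names ending in _s_at, which can match more than 1 transcript. KLF15, which promotes gluconeogenesis and amino acid breakdown in liver, had 1 probe set at -1.03, or 2.04-fold lower, with values of -0.51 on the CD24 shRNA array and 0.51 on the control array. Its other probe set was tied at 0 on both arrays, which brings the mean to -0.51 ± 0.73 (SD, 2 probe sets).

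**Figure D3:**
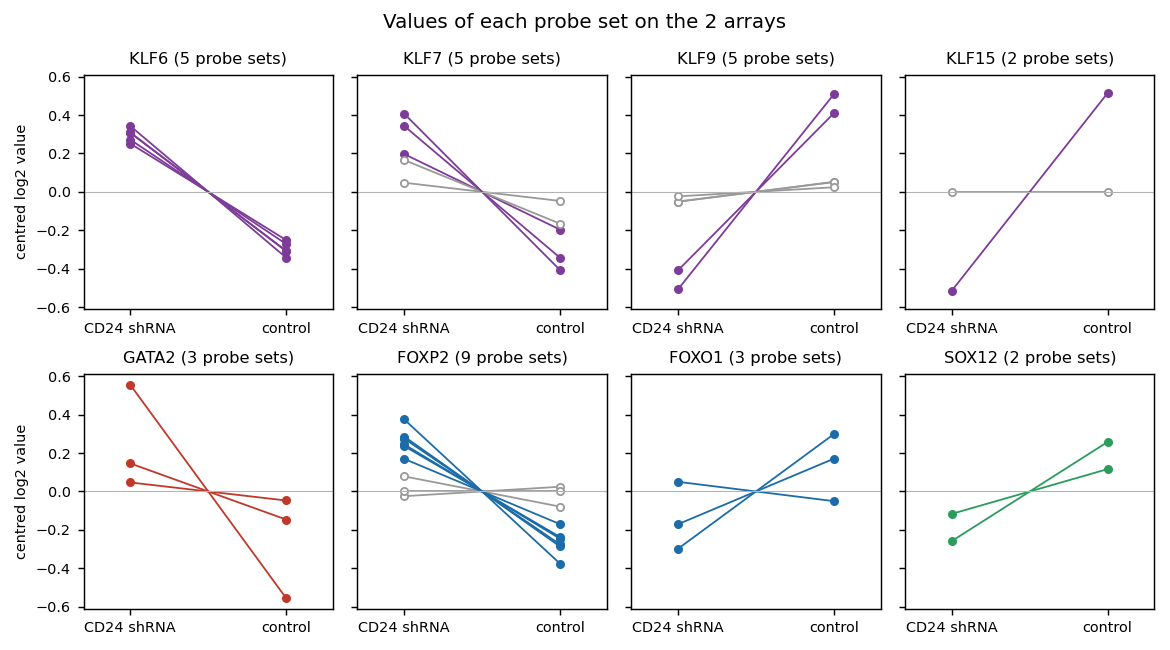
Centred log2 value (y axis) of each probe set on the CD24 shRNA array (left) and the control array (right) for 8 members; a line joins the values of 1 probe set, and grey lines with open circles are probe sets placed below a log2 level of 4 or tied at 0. The 5 KLF6 lines lie close together, with 0.25 to 0.34 on the CD24 shRNA array, whereas the KLF9 and KLF15 lines divide into steep and nearly flat ones.

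The remaining KLF genes were grouped by the corepressor that they are known to bind. In the SIN3-binding group, KLF11, a TGF-beta-inducible factor, lay at 0.42 ± 0.42 (SD, 2 probe sets), at 0.72 and 0.12, and KLF14, an imprinted regulator of metabolic genes, 0.30 ± 0.05 (SD, 2 probe sets, 1 near background). KLF13, known from T lymphocytes, lay at -0.10 ± 0.11 (SD, 4 probe sets), KLF16 at -0.07, and KLF10, another TGF-beta-inducible factor, at 0.04 on 1 probe set. In the CtBP-binding group, KLF8 lay at 0.14 ± 0.07 (SD, 2 probe sets), and KLF3 and KLF12 had means near 0 over probe sets that disagreed. KLF3 averaged 0.03 ± 0.56 (SD, 4 probe sets), with 0.45, 0.32 and 0.16 on 3 of them and -0.79 on another, none placed near background. KLF12 averaged 0.02 ± 0.25 (SD, 8 probe sets), between -0.40 and 0.40. Both KLF12 probe sets below 0 were placed near background, and the 3 that were neither dim nor tied lay above 0, with a mean of 0.22. Nothing in the table says which transcript each probe set reads. KLF17, outside these groups, lay at 0.02.

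Promoter sequence is shown to compare the sites that KLF proteins themselves bind. It is given for KLF6, the single member past 1.5-fold by the mean over all its probe sets. KLF9, KLF15 and GATA2, the 3 genes with a probe set past 2-fold, are shown beside it. Each run is the 250 bases before the annotated start on the minus strand, from RefSeq (GRCh38.p14), 5′ to 3′. Capitals mark the GC box (letters GGGCGG) and the CACCC box, named by its letters. Both strands were searched, so their reverse complements are in capitals too, and adjoining matches may overlap. KLF6 lies at chr10:3785210-3785459, KLF9 at chr9:70414658-70414907 and KLF15 at chr3:126357409-126357658. GATA2 has 2 annotated starts, with windows at chr3:128493202-128493451 (start 1) and chr3:128488531-128488780 (start 2).
KLF6: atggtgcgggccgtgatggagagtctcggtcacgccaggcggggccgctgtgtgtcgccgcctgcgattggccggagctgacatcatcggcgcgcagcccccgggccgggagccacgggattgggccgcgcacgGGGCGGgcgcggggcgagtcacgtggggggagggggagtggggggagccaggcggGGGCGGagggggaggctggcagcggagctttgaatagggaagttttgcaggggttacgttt
KLF9: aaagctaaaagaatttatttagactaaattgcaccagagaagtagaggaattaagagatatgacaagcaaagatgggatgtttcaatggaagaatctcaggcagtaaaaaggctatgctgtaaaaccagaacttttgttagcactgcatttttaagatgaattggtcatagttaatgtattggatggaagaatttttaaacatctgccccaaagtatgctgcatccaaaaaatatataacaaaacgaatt
KLF15: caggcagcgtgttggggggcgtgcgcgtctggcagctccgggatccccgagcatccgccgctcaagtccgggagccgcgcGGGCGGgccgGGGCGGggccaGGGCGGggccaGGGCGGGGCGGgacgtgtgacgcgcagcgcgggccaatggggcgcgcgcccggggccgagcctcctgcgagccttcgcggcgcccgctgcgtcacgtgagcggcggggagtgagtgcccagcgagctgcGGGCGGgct
GATA2 start 1: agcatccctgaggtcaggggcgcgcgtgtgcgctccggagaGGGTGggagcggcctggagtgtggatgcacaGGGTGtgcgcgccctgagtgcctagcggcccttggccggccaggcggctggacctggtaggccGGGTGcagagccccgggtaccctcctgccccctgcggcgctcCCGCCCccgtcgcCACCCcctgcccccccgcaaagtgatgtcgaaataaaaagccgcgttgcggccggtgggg
GATA2 start 2: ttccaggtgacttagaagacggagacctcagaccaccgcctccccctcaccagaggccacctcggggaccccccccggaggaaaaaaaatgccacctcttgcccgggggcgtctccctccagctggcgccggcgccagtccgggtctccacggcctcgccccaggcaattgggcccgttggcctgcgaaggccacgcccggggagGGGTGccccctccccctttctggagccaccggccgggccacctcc

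The KLF15 window held 6 GC boxes, 5 of them between 170 and 133 bases before the start, and the KLF6 window 2, at 116 and 61 bases. The KLF9 window held neither motif and was 32.4% G and C, against 72.4% for KLF6, 80.4% for KLF15 and a median of 58.0% over all annotated starts. The first GATA2 window had 4 CACCC boxes and 1 GC box, and the second had 1 CACCC box. Over 35116 annotated starts of all genes, 42.6% of such windows held a GC box and 54.7% a CACCC box; over the 89 starts matched for 56 of the 77 member genes the shares were 58.4% and 57.3%. All 10 annotated starts of the 4 matched GATA genes had a CACCC box. None of the 5 printed windows held the GATA motif AGATAA, present in 9.17% of all windows, the forkhead motif GTAAACA, present in 2.98%, or the SOX motif ACAATG, present in 9.29%, on either strand. A match is a description of the letters only, and a role of these motifs in the differences was not tested.

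GATA2, a factor of blood stem cells and endothelium, was the one GATA gene whose mean was larger than the pooled SD. It averaged 0.25 on the CD24 shRNA array and -0.25 on the control array, a log2 difference of 0.50 ± 0.54 (SD, 3 probe sets), or 1.41-fold higher. All 3 probe sets were higher with CD24 shRNA, but unequally, at 1.11, 0.29 and 0.09. The first was 2.16-fold higher, with 0.56 on the CD24 shRNA array and -0.56 on the control array. GATA2-AS1, the transcript antisense to GATA2, had a log2 difference of 0.67 on 1 probe set. Antisense and neighbouring transcripts of other members did not all follow their gene. GATA6-AS1 lay at 0.33 beside 0.13 for GATA6, FOXP1-AS1 at -0.18 beside 0.12 for FOXP1, and KLF9-DT at -0.02 beside -0.42 for KLF9. The sources used here do not state the strand that each probe set reads, so overlap between the GATA2 and GATA2-AS1 signals was not assessed.

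The other GATA genes lay within 0.13 of 0. GATA4 and GATA6, the hepatic and cardiac endoderm factors, lay at 0.06 ± 0.12 (SD, 5 probe sets) for GATA4 and 0.13 ± 0.34 (SD, 2 probe sets) for GATA6. The GATA6 probe sets were 0.37 and -0.12, on opposite sides of 0, while 4 of 5 GATA4 probe sets were within 0.10 of 0 and the highest was 0.24. GATA5, of the same subgroup, lay at -0.02 ± 0.10 (SD, 2 probe sets) and GATA1, the erythroid and megakaryocyte factor, at -0.01 ± 0.07 (SD, 2 probe sets). GATA3, a T cell and luminal epithelial factor, averaged 0.08 ± 0.41 (SD, 3 probe sets), with 0.53, -0.05 and -0.25, and all 3 were placed near background. Over the 6 genes, 4 lay above 0 and 2 below, with a median of 0.07, and in GATA2 alone did all probe sets lie on 1 side.

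In the FOX family 18 genes lay above 0, 16 below and 2 at 0, with a median log2 difference of 0.01 and a range from -0.40 to 0.50. No FOX gene passed 1.5-fold by the mean over its probe sets, though FOXR2 lay at 0.60 when scaled on the hybridisation controls. FOXP2 lay above 0 on 7 of 9 probe sets, and the insulin-regulated FOXO genes divided 2 to 2, with FOXO1 and FOXO3 below 0 and FOXO4 and FOXO6 above. All probe sets lay on 1 side of 0 in 5 of the 19 FOX genes with several probe sets (26.3%), against 39.9% of all such genes. A tied probe set counts as not on 1 side, as in FOXP3 and FOXJ3, and the number of probe sets per gene was not matched. Of the 36 FOX genes, 10 had only probe sets that were placed near background or tied, against 3904 of all 19775 genes. Among the 10 was FOXR2, which had the highest FOX value.

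FOXP2, a factor of neural circuits for speech and vocal learning, averaged 0.18 on the CD24 shRNA array and -0.18 on the control array, a difference of 0.37 ± 0.27 (SD, 9 probe sets). Of its 9 probe sets, 6 were neither tied nor near background, and these were 0.75, 0.57, 0.55, 0.49, 0.47 and 0.34, with a mean of 0.53. The other three were 0.16, 0 and -0.05. Its relatives were closer to 0: FOXP1, a factor of B cell and heart development, lay at 0.12 ± 0.24 (SD, 8 probe sets, -0.22 to 0.57), FOXP3, the regulatory T cell factor, at 0.13 ± 0.13 (SD, 3 probe sets), and FOXP4 at -0.09 on probe sets of 0.25 and -0.42. FOXP4-AS1, antisense to FOXP4, had a difference of -0.43 on 1 probe set.

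FOXO1, the forkhead activator of hepatic gluconeogenic genes that insulin signalling keeps out of the nucleus, averaged -0.14 on the CD24 shRNA array and 0.14 on the control array. Its difference was -0.28 ± 0.35 (SD, 3 probe sets), from probe sets of -0.60, -0.34 and 0.10, all with names ending in _s_at. FOXO3, a regulator of stress resistance and apoptosis, averaged -0.12 on the CD24 shRNA array and 0.12 on the control array. All 4 of its probe sets were lower with CD24 shRNA, between -0.42 and -0.12, for a mean of -0.23 ± 0.13 (SD, 4 probe sets). A further 3 probe sets match FOXO3 and its near-identical copy FOXO3B, and read -0.30, 0.15 and 0.28; counting them brought FOXO3 to -0.11. FOXO4 lay at 0.06 and FOXO6 at 0.17, each on 1 probe set.

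FOXK2, a repressor of starvation and autophagy genes, was lower on all 7 of its probe sets, by small amounts between -0.40 and -0.04, and averaged -0.17 ± 0.13 (SD, 7 probe sets); 3 of them were placed near background. Its partner FOXK1 lay at -0.02. FOXQ1, an epithelial forkhead factor, was the lowest FOX gene at -0.40 on 1 probe set, with -0.20 on the CD24 shRNA array and 0.20 on the control array. FOXF2, a factor of gut mesenchyme, lay at 0.34 on 1 probe set. FOXN4, a factor of retinal progenitors, averaged -0.34 ± 0.41 (SD, 3 probe sets), with -0.61, -0.54 and 0.13; the first and last were placed near background, and without them FOXN4 lay at -0.54. FOXI1, which drives proton-pump genes in kidney intercalated cells, and FOXJ1, the master factor of motile cilia, lay at -0.33 and -0.29, each on 1 probe set.

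FOXR2 was 1.41-fold higher at 0.50 on 1 probe set, and FOXR1 lay at 0.22, FOXD2 at -0.21 and FOXS1 at -0.16, also on 1 probe set each; all 4 probe sets were placed near background. The 21 FOX genes with smaller differences, FOXP3, FOXP4, FOXK1 and FOXO4 above among them, lay between -0.15 and 0.13. They also include FOXM1, the proliferation-linked activator of mitotic genes, at -0.08 on 1 probe set, and FOXE1, a thyroid factor, at 0.12 on probe sets of 0.58 and -0.35. FOXB1 and FOXF1 were tied at 0 on their 1 probe set.

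SOX genes had no large positive difference: the highest of 18 was 0.15 and the lowest -0.37. Of them 11 lay above 0, 6 below and 1 at 0, with a median log2 difference of 0.04, and 17 (94.4%) were smaller in size than the pooled SD, against 76.0% of all genes. SOX12, a group C factor of the developing nervous system, was the exception. It averaged -0.19 on the CD24 shRNA array and 0.19 on the control array, a difference of -0.37 ± 0.20 (SD, 2 probe sets) from probe sets of -0.52 and -0.23. Neither was placed near background. Its group C paralogs SOX4, expressed in many carcinomas, and SOX11, of neural progenitors, lay on the other side, at 0.09 ± 0.15 (SD, 6 probe sets) and 0.12 ± 0.04 (SD, 3 probe sets).

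Group D, whose proteins lack an activation domain of their own, was slightly lower in 2 of its 3 genes. SOX13 was lower on all 3 probe sets, at -0.27, -0.17 and -0.11, with a mean of -0.18 ± 0.08 (SD, 3 probe sets). SOX5, a cartilage and neural factor, averaged -0.16 ± 0.18 (SD, 4 probe sets) and was lower on 3 of 4. SOX6, its partner in cartilage, lay at 0.03 ± 0.23 (SD, 8 probe sets), with 1 probe set at 0.56, another pair tied and the others between -0.19 and 0.09.

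Group B comprises the neural progenitor activators SOX1, SOX2 and SOX3, at 0.07, 0.05 and 0.08, and the repressors SOX14 and SOX21, at -0.21 and 0.15. The SOX14 and SOX21 probe sets were near background, and SOX1 spread over 0.37, 0.06 and -0.22 (SD 0.30, 3 probe sets). SOX2, a pluripotency factor, ranged from -0.11 to 0.13 over 4 probe sets, 2 of them near background. The neural crest factors SOX8 and SOX10 (group E) lay at 0.13 and 0.11. Among the endoderm and endothelial factors of group F, SOX17 averaged -0.13, with 1 probe set at -0.26 and another tied, SOX18 lay at -0.02 and both SOX7 probe sets were tied at 0. SOX15 lay at 0.09 and SOX30, a testis factor, at 0.03.

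Partners, regulators and targets of these factors were summarised in 11 lists, whose median log2 differences ran from -0.14 to 0.15. As computed over all probe sets, the median lay above 0 in 8 lists and below 0 in 3. The pooled SD is a spread among probe sets of 1 gene, so it gives no scale for a median over genes. Scaled on the hybridisation controls, the medians of FOXO targets (0.09) and SOX partners (0.03) lay above 0 too. The 12 GATA cofactors and partners divided 6 to 6 around 0 (median 0.01), and none was 2-fold higher or lower. MEF2C, a muscle and endothelial factor that works with GATA4, was 1.81-fold higher (0.86 ± 0.41, SD, 3 probe sets), with HAND2 at -0.28 and NKX2-5 at -0.20. Of 12 cardiac targets of GATA4 and GATA6, 1 was at least 2-fold higher and none lower: NPPB, the natriuretic peptide B precursor, at 3.24. Next were ACTC1, cardiac alpha-actin, at 0.45 and TNNC1, a troponin, at 0.33. NPPB, ACTC1 and TNNC1 each had 1 probe set. Of the 30 probe sets of the list, 13 were placed near background. The median of that list was 0.07, with 7 genes above 0 and 5 below.

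FOXO upstream regulators had 10 of 15 genes above 0 (median 0.15) and none 2-fold higher or lower; without probe sets named _s_at or _x_at the median turned to -0.01 over 10 genes. IRS2, the insulin receptor substrate that is also a FOXO target, was 1.74-fold higher (0.80 ± 0.16, SD, 2 probe sets), PIK3R1, a regulatory subunit of PI3-kinase, lay at -0.56 ± 0.17 (SD, 3 probe sets) and SKP2, a ubiquitin ligase subunit, at 0.39. Of 18 FOXO targets 9 lay above and 9 below 0 (median -0.02). GADD45A, a growth arrest gene, was just past 2-fold higher on 1 probe set and the gluconeogenic enzyme gene PCK1 1.87-fold lower, also on 1 probe set. FOXM1 targets, genes of mitosis, had 10 of 16 above 0 (median 0.07) and none past 1.5-fold. In that list TOP2A was the lowest at -0.43 ± 0.26 (SD, 3 probe sets), with AURKB at -0.38 ± 0.26 (SD, 2 probe sets). CDC25B, a phosphatase of mitotic entry, lay at 0.28.

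SOX partners had 7 of 11 genes below 0 (median -0.08). TCF7L1, a repressing TCF factor, was 1.88-fold lower on 1 probe set, and the Groucho corepressors TLE2 and TLE3 lay at -0.44 and -0.39, with all their probe sets below 0. Of 12 cartilage targets of SOX5, SOX6 and SOX9, 8 lay below 0 (median -0.14). In that list 1 was past 2-fold on the higher side and 2 on the lower side, against 0.632% and 0.485% of all genes. Of its 25 probe sets, 9 were placed near background. MATN3, a cartilage matrix protein, was 3.99-fold higher and COL9A3, a type IX collagen chain, lay at -1.67, each on 1 probe set, and COL11A1, a minor fibrillar collagen chain, at -1.72 ± 1.02 (SD, 3 probe sets). The list therefore had members far from 0 on both sides.

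SP proteins, the nearest relatives of KLF, had 4 of 8 genes above 0, 3 below and 1 at 0 (median 0.02). SP5, a Wnt target, was 1.86-fold higher on 1 probe set, and the next in size were SP6 at -0.17 and SP8 at 0.11. KLF corepressors lay within 0.20 of 0 (8 genes, median 0.02): CTBP1 at 0.20, CTBP2 at 0.18 ± 0.43 (SD, 6 probe sets) and HDAC1 at -0.18. Of 11 KLF2 and KLF4 targets, 6 lay above and 5 below 0 (median 0.07), but without probe sets placed near background the median turned to -0.28 over 9 genes. The genes named from that list were TFPI2, ASS1 and KRT19. TFPI2, a protease inhibitor, was 2.25-fold higher (1.17 ± 0.02, SD, 2 probe sets, 1 near background). ASS1, an enzyme of the urea cycle, was 2.01-fold lower on 1 probe set. KRT19, a biliary keratin, was 1.55-fold higher (2 probe sets, 1 near background). Of 12 targets of KLF15, KLF6 and KLF10 in liver and other tissues, 8 lay above 0 (median 0.13) and none reached 1.5-fold. CDKN1A, a cell cycle inhibitor induced by KLF6, lay at -0.57 and SMAD7 at 0.47, each on 1 probe set. PLAU lay at 0.42.

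**Figure D4:**
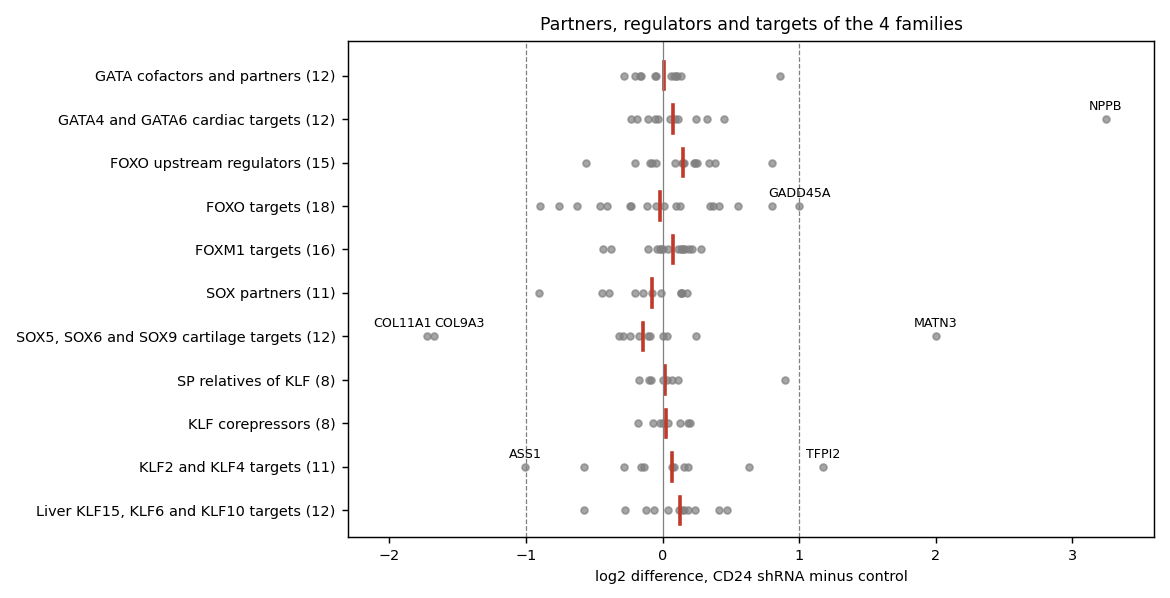
Log2 difference, CD24 shRNA minus control (x axis), of each measured gene (grey point) in 11 lists of partners, regulators and targets, with the number of genes in brackets, the median as a red bar and dashed lines at 2-fold; genes past 2-fold are named. The medians run from -0.14 to 0.15, and NPPB, at 3.24 on 1 probe set, is the farthest point.

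Markers of other cell types were summarised beside these values. Of 10 stellate cell and fibroblast markers, 3 were at least 2-fold higher with CD24 shRNA (TAGLN, COL3A1 and LUM) and none lower. Over all genes the shares were 0.632% and 0.485%. The median of these markers was 0.16, with a range from -0.26 to 2.67. The probe sets of the 3 genes past 2-fold disagreed in size, with SDs of 2.27 for TAGLN (3 probe sets), 1.77 for COL3A1 (5) and 1.41 for LUM (2). The 8 endothelial markers ranged from -0.24 to 0.40, the 4 blood markers from 0.00 to 0.17, the 4 cholangiocyte markers from 0.05 to 0.63 and the 9 hepatocyte and hepatoma markers from -0.94 to 0.59. Their part in the differences of the member genes was not tested, and with 1 sample of each kind the hairpin, the culture and the array cannot be told apart.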

How the data were processed

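Total RNA of 2 Huh7 samples was extracted with Trizol and biotin-labelled, per the labels. The deposited log2 values were made by the authors with RMA, per the submitters' processing notes, which name no version. The labels do not describe the centring. The values of a probe set sum to 0 within 1e-06, so only differences could be analysed. Probe sets were named from GEO's platform annotation: 41091 name 1 gene, 1801 several and 11721 none here, and 62 control probe sets were left out. All 77 member symbols were unchanged in RefSeq (GRCh38.p14).

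Gene values are means over probe sets, computed with Python 3.11.15 and pandas 2.3.3, and the calculation was tested on simulated data. The simulated differences were larger than any member mean and the same on all probe sets of a gene. That run therefore did not cover small differences or probe sets that disagree. The digits can miss dim probe sets: of 209 probe sets of odorant and taste receptor, keratin-associated protein and defensin genes, expected to be silent, 112 were placed below 4. So were 8 of 134 of ribosomal protein and other genes expected to be abundant. A probe set placed below 4 therefore does not show that its gene was dim. Named by rule were all GATA genes, the 14 FOX, 9 SOX and 9 KLF genes with the largest difference, members with a probe set past 2-fold or with 3 or more probe sets on both sides of 0 that range over 0.5, and up to 3 genes per list. Other members, antisense transcripts and markers were named after their values were seen. Members and lists were chosen with earlier results of these data known. Alternatives were other ways to combine, leave out or scale probe sets; adding probe sets shared with a near-identical gene, and leaving out genes with only dim or tied probe sets, were chosen after seeing the data.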

Additional observations from a re-analysis of the deposited data

How the results depend on the processing

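No paired analysis was possible because each group holds 1 array, and for the same reason no replicate could be left out. By the largest probe set per gene, and with 1 value per probe set, 1 member was at least 2-fold higher and 2 lower. Over all probe sets that name 1 gene, 1.01% were 2-fold higher and 0.601% 2-fold lower. The share of all genes by the largest probe set was not computed. A threshold of 1.5-fold gave 1 higher, a count that was not repeated under the other settings. Members past 1.5-fold there included KLF7 (0.63) and KLF9 (-0.92) without probe sets placed below 4. Without _s_at and _x_at probe sets they included KLF11 (0.72) and GATA2 (0.60). Scaled on the hybridisation controls, they included GATA2 (0.605) and FOXR2 (0.60). The shares of all genes past 1.5-fold under these settings were not computed, so these members have no background to be read against. Scaling the arrays on 9 hybridisation control probe sets added 0.11 to every difference and moved the medians to 0.11 (FOX), 0.15 (SOX), 0.17 (GATA) and 0.14 (KLF); 10 members just below 0 would change side, as would the medians of FOXO targets (0.09) and SOX partners (0.03). The largest probe set per gene moved the GATA median to 0.31. The means over FOX and SOX genes lay on the other side of 0 from their medians, at -0.01 each. Of 515 alternative values of single genes, 22 moved by at least the pooled SD, 17 of them with the largest probe set per gene; GATA3 lay at -0.25 without probe sets ending in _s_at or _x_at. Without probe sets placed below 4, KLF2 and KLF4 targets had a median of -0.28 over 9 genes; FOXO upstream regulators had -0.01 over 10 genes without _s_at and _x_at probe sets, and KLF corepressors -0.09 with the largest probe set. The share of GC boxes was not recomputed under other windows. Levels, and so detection, could not be assessed.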
